A study of Homo sapiens with 12 samples.

Results

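The genes described here are 39 genes of mitosis and its spindle checkpoint, chosen by name. They were measured on arrays in MDA-MB-231 cells, a human line from a breast carcinoma with mesenchymal features. Of these, 38 are found under their own symbol in the deposited annotation, and CDK1 is listed under its older symbol, CDC2, and was found by its Entrez gene number. Each has 1 probe set, of 28869 on the array, and all 39 were among the 12151 genes tested. The 12 samples form 4 groups of 3: cells given 0.1 mM 5-aminolevulinic acid (5-ALA) and 15 nM of an siRNA against FECH, cells given 0.1 mM 5-ALA and 15 nM of the Allstar control siRNA, cells given 0.1 mM 5-ALA only, and cells with no treatment. 5-ALA is the precursor from which cells make heme, and FECH encodes ferrochelatase, which inserts the iron in the last step. The FECH siRNA is a single sequence, so other effects of that sequence cannot be told apart from those of silencing FECH. It is shown here because the main comparison rests on it, as the labels print it, 5′ to 3′.
FECH siRNA: gaauauccucuugguuccg

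A cell enters mitosis when the kinase CDK1, bound to B-type cyclins, becomes active. The chromosomes are then condensed and attached by their kinetochores to the spindle. The spindle checkpoint holds the cell at this point: kinetochores that are not attached make MAD2 (the product of MAD2L1), BUBR1 (BUB1B) and BUB3 bind CDC20, which keeps the anaphase promoting complex from marking securin and cyclin B for destruction. Most of these genes are transcribed in a wave in G2 and mitosis, under the control of the DREAM and MYB-MuvB complexes, NF-Y and FOXM1. Their mRNA is for this reason often read as a measure of dividing cells in a culture.

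Each gene was measured 12 times, once per sample, and precision is limited by this number of arrays. All values are log2 of the deposited signal, differences are log2 fold changes, and a gene rose or fell where limma gave an adjusted p below 0.05 over all genes tested. The median log2 signal per array was 7.25 to 7.34. FECH itself was at 6.53 ± 0.09 with FECH siRNA, 8.55 ± 0.05 with control siRNA, 8.50 ± 0.12 with 5-ALA only and 8.49 ± 0.09 in untreated cells (SD, n = 3 each), as the labels say. The markers VIM, CD44, EGFR, CAV1, AXL and FOSL1, which this line expresses, exceeded 7.29, the median over all probe sets, on all 12 arrays. ESR1 and PGR lay below it on all 12. EPCAM and GATA3, listed as low in this line, were above it on all 12, and CDH1, listed likewise, on 7. Of the markers of other cell types, PTPRC, CD3E, PDGFRA, DCN and VWF were above it on no array. The fibroblast markers PDGFRB, COL1A1 and LUM and the endothelial marker KDR were above it on all 12, and PECAM1, also endothelial, on 11. The 4 blood and immune markers measured summed to 1079 to 1097 on the linear scale with FECH siRNA, and to 1798 to 1861 with control siRNA, 1507 to 1758 with 5-ALA only and 1650 to 1798 in untreated cells. CD14 alone of these 4 was above 7.29 on all 12 arrays. The 5 fibroblast markers summed to 1653 to 1820 with FECH siRNA, 1928 to 2327 with control siRNA, 1517 to 1675 with 5-ALA only and 1484 to 1739 in untreated cells, so that control siRNA was the group that stood apart. The 4 endothelial ones summed to 552 to 596 with FECH siRNA, 757 to 812 with control siRNA, 671 to 744 with 5-ALA only and 656 to 747 in untreated cells. The part of these in the results was not tested. One array, untreated replicate 3, stood apart, with 416 genes more than 0.5 from the mean of its other 2, against 10 to 115 on the other arrays. None of the 39 genes was among the 416. The labels do not say whether replicates are separate cultures, so each p-value reflects no more than the spread of these 12.

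FECH siRNA against control siRNA is the comparison in which 5-ALA and the siRNA dose are matched. The mitosis genes split. MAD2L1, the core of the checkpoint signal, fell 4.02-fold, and KIF23, a motor of cytokinesis, fell 1.63-fold. SPC25 and CDC25C fell less, 1.27-fold and 1.25-fold. For CDC25C the control siRNA arrays were above all others, and the FECH siRNA arrays overlapped those without siRNA. In the other direction 16 genes rose, by 1.12-fold to 1.48-fold, led by AURKB, MKI67, CDCA8, NUF2 and FOXM1. The remaining 19 did not pass. In all, 20 of the 39 were called, or 51.3%, beside 38.3% of all genes tested. The 16 that rose stand beside 20.4% of all genes that rose, and the 4 that fell beside 17.8% that fell. The median over the 39 was 0.15, beside 0.00 over all genes. On 17 genes all 3 FECH siRNA arrays were above all 3 control siRNA arrays, and on 4 all were below, where 27.1% and 24.1% of all genes did so. RNA of whole cultures cannot tell more cells in mitosis apart from more mRNA per cell. The count of 16 depends on single arrays: it is 7 without FECH siRNA replicate 1 and 7 without control siRNA replicate 2. Of all 12151 genes, 2139 and 1926 rose in these fits, in place of 2483. The share of the 39 that rose is then close to that of all genes. In every alternative that tested the gene, 9 of the 20 calls held, those of MAD2L1, KIF23, CDC25C, AURKB, MKI67, CDCA8, NUF2, FOXM1 and KIF20A. The other 11 were lost in at least 1 that leaves out an array.

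**Figure D1:**
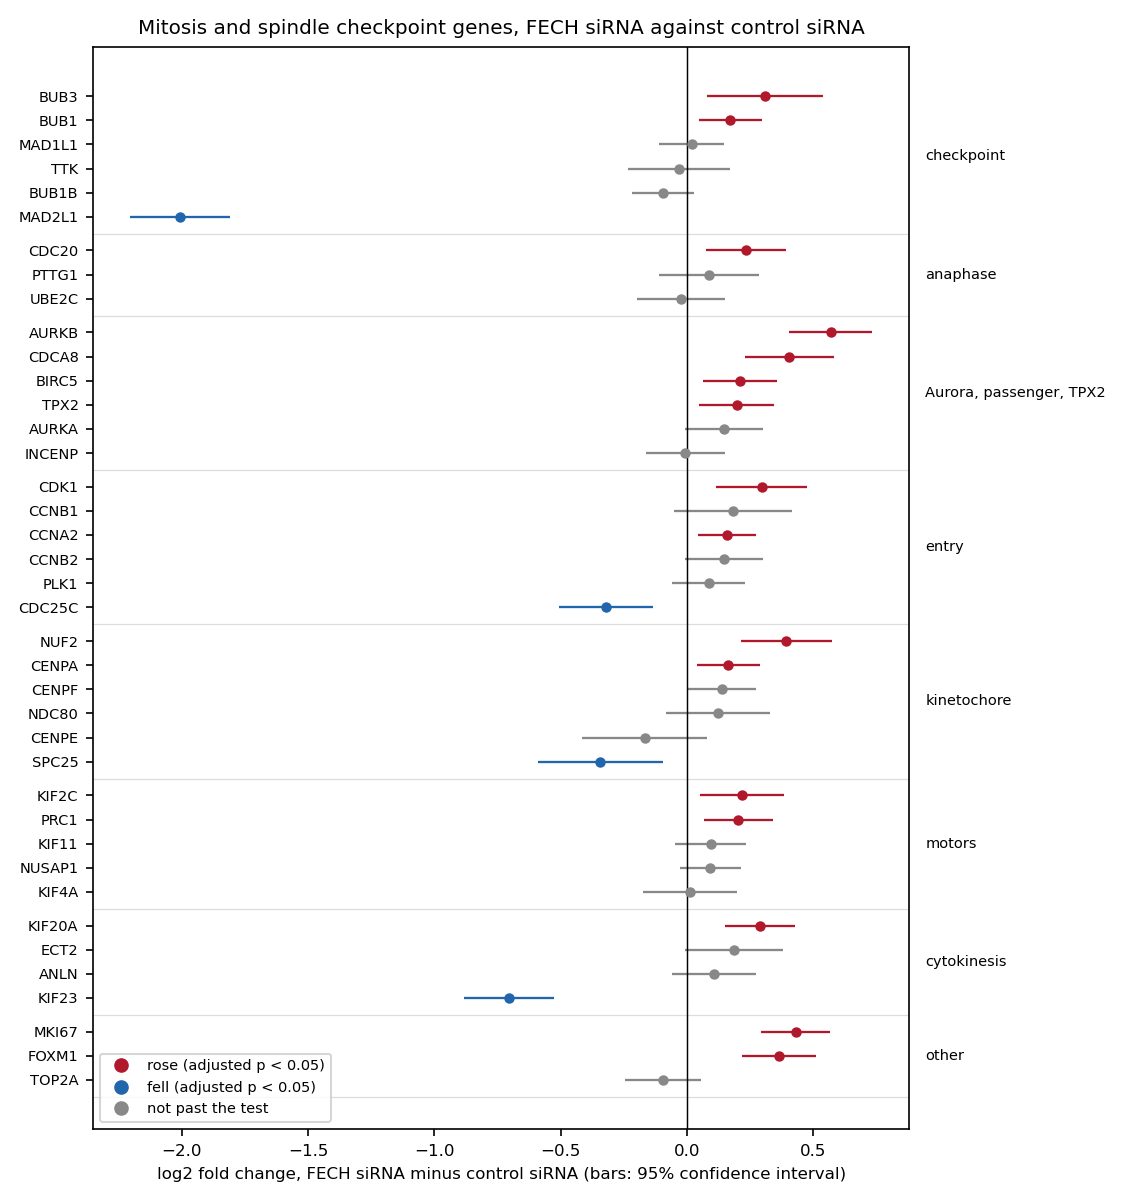
Log2 fold change, FECH siRNA minus control siRNA (x axis), for the 39 mitosis and spindle checkpoint genes (y axis, grouped by role), with 95% confidence intervals. MAD2L1 at -2.01 lies far to the left of the others, which run from -0.71 to 0.57; red genes rose, blue ones fell and grey ones did not pass the limma test.

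The 6 genes of the spindle checkpoint went different ways. MAD2L1 (probe set 8102560), whose product is the part of the checkpoint complex that closes around CDC20, had log2 signals of 7.79, 7.91 and 7.56 with FECH siRNA, and 9.86, 9.64 and 9.78 with control siRNA. It had 9.89, 9.68 and 9.83 with 5-ALA only, and 9.89, 9.76 and 9.86 in untreated cells. The 3 FECH siRNA arrays were the lowest of the 12, and the other 3 groups overlapped one another. The group means were 7.75 ± 0.18 with FECH siRNA and 9.76 ± 0.11 with control siRNA (SD, n = 3 each), a fall to 24.9% of the control level (log2 fold change -2.01, SE 0.09, limma adjusted p = 8.9e-09). The next lowest value among the 39, that of KIF23, was -0.71. All MAD2L1 signals stayed above 7.29.

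MAD1L1, which recruits MAD2 to unattached kinetochores, showed no such fall. Its signals were 8.59, 8.51 and 8.65 with FECH siRNA, and 8.48, 8.62 and 8.59 with control siRNA, and the groups overlapped. Its log2 fold change was 0.02, with a 95% interval of -0.11 to 0.15, so that a fall of the size seen for MAD2L1 lay outside it. BUB1B, the BUBR1 kinase-like inhibitor of CDC20, had 9.74, 9.71 and 9.65 with FECH siRNA, and 9.78, 9.74 and 9.88 with control siRNA, and it did not pass either (log2 fold change -0.10, SE 0.06, limma adjusted p = 0.215). With 5-ALA only BUB1B had 9.99, 9.90 and 9.94, and in untreated cells 9.89, 9.87 and 9.88, all above the 3 FECH siRNA arrays.

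BUB3, which brings BUB1 and BUBR1 to kinetochores, rose. Its signals were 11.17, 10.89 and 10.84 with FECH siRNA, and 10.82, 10.48 and 10.68 with control siRNA (log2 fold change 0.31, SE 0.11, limma adjusted p = 0.035). With 5-ALA only it had 10.82, 10.61 and 10.81, and in untreated cells 10.91, 10.74 and 10.68. The lowest FECH siRNA array was above those with 5-ALA only and within the range of the untreated ones. The kinase BUB1 had 11.56, 11.56 and 11.49 with FECH siRNA, and 11.39, 11.29 and 11.42 with control siRNA, a small rise with no overlap (log2 fold change 0.17, SE 0.06, limma adjusted p = 0.029). TTK, the MPS1 kinase that starts checkpoint signalling, was not past the test (-0.03, interval -0.23 to 0.17). Of the 6 checkpoint genes, then, 2 rose, 1 fell and 3 did not pass, where 20.4% of all genes rose and 17.8% fell.

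**Figure D2:**
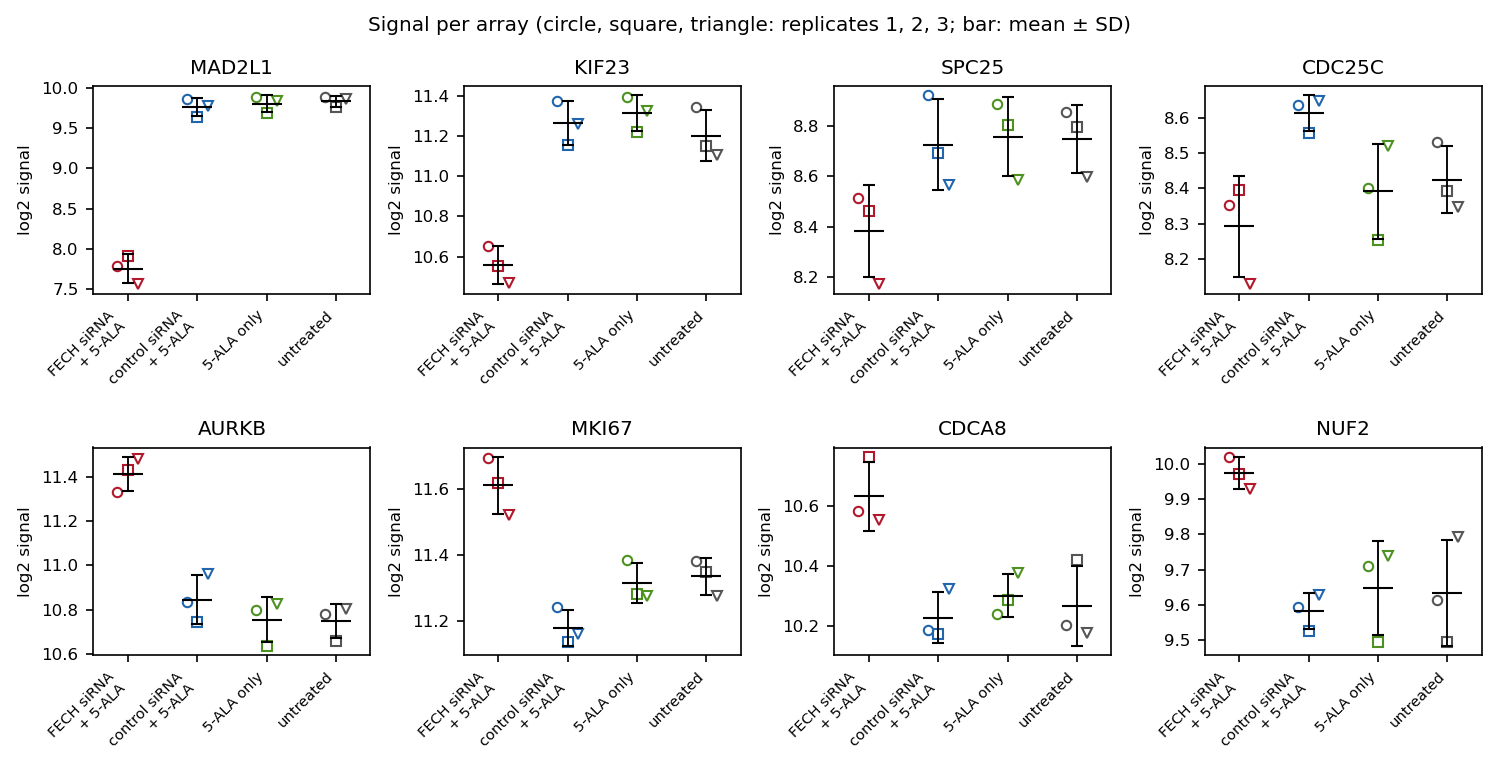
Log2 signal per array (y axis) of the 4 genes that fell and the 4 with the largest rise, in the 4 groups (x axis); symbols are replicates 1 to 3 and bars the mean ± SD. MAD2L1 and KIF23 are lowest on the FECH siRNA arrays and AURKB, MKI67, CDCA8 and NUF2 highest, while for CDC25C the FECH siRNA arrays overlap those of 5-ALA only and untreated cells.

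In the group of the anaphase switch, CDC20 rose and the 2 others did not pass. CDC20, the activator of the anaphase promoting complex and the target of the checkpoint, had 11.46, 11.32 and 11.24 with FECH siRNA, and 11.14, 10.99 and 11.19 with control siRNA (log2 fold change 0.23, SE 0.07, limma adjusted p = 0.023). The arrays with 5-ALA only had 11.03, 11.07 and 11.02, and those of untreated cells 11.17, 11.03 and 11.20, all below the lowest FECH siRNA array. PTTG1, or securin, which holds separase inactive, was at 0.09 (interval -0.11 to 0.29). UBE2C, the ubiquitin-conjugating enzyme of the complex, was at -0.02 (interval -0.20 to 0.15).

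The chromosomal passenger complex corrects wrong attachments, and 3 of its 4 genes rose, by unlike amounts, where 20.4% of all genes rose. AURKB, its kinase, had the largest rise of the 39 genes, with 11.33, 11.43 and 11.48 with FECH siRNA, and 10.83, 10.74 and 10.96 with control siRNA. It had 10.80, 10.64 and 10.83 with 5-ALA only, and 10.78, 10.66 and 10.80 in untreated cells. All 3 FECH siRNA arrays were above the other 9, a rise of 1.48-fold over control siRNA (log2 fold change 0.57, SE 0.08, limma adjusted p = 5.5e-05). CDCA8, or borealin, which binds the complex to the centromere, had 10.58, 10.76 and 10.55 with FECH siRNA, and 10.19, 10.17 and 10.33 with control siRNA (log2 fold change 0.41, SE 0.08, limma adjusted p = 0.0014). CDCA8 had 10.24, 10.29 and 10.38 with 5-ALA only, and 10.20, 10.42 and 10.18 in untreated cells, again below every FECH siRNA array. BIRC5, or survivin, rose 1.16-fold (limma adjusted p = 0.027) though its groups overlapped. INCENP, the scaffold, was at -0.01 (interval -0.16 to 0.15).

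AURKA is the kinase of the spindle poles, and TPX2 activates it. TPX2 rose by 0.20 (SE 0.07, limma adjusted p = 0.036). AURKA was at 0.15 and did not pass (interval -0.01 to 0.30). Whether these 2 differ was not tested.

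Among the genes of mitotic entry, the kinase CDK1 rose and the phosphatase CDC25C, which activates it, fell. CDK1 had 10.51, 10.26 and 10.17 with FECH siRNA, and 10.03, 10.04 and 9.98 with control siRNA (log2 fold change 0.30, SE 0.08, limma adjusted p = 0.013), with FECH siRNA replicate 1 the highest array of the 12. CDK1 had 10.10, 9.98 and 10.15 with 5-ALA only, and 10.14, 9.98 and 10.10 in untreated cells, all below the lowest FECH siRNA array. CDC25C had 8.35, 8.40 and 8.13 with FECH siRNA, and 8.64, 8.56 and 8.65 with control siRNA (log2 fold change -0.32, SE 0.09, limma adjusted p = 0.0093). CDC25C had 8.40, 8.25 and 8.52 with 5-ALA only, and 8.53, 8.39 and 8.35 in untreated cells. The control siRNA arrays were thus the highest of the 12 for CDC25C, and the FECH siRNA arrays overlapped the 6 without siRNA.

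Of the 3 cyclins, CCNA2 rose, and CCNB1 and CCNB2 did not pass. CCNA2, cyclin A2, which acts from S phase to early mitosis, was higher by 0.16 (SE 0.05, limma adjusted p = 0.030). CCNB1, cyclin B1, the partner of CDK1, had 10.30, 10.18 and 10.00 with FECH siRNA, and 10.12, 9.79 and 10.02 with control siRNA, and it did not pass (0.18, interval -0.05 to 0.41). CCNB1 had 10.38, 10.08 and 10.27 with 5-ALA only, and 10.44, 10.18 and 10.36 in untreated cells, so its 3 control siRNA arrays were all below the untreated ones. CCNB2, the other B-type cyclin, was at 0.15 (interval -0.01 to 0.30). PLK1, the polo kinase that drives entry and spindle assembly, had 11.91, 11.87 and 11.76 with FECH siRNA, and 11.69, 11.72 and 11.87 with control siRNA, with overlapping groups. Its difference, 0.09, missed the threshold (interval -0.06 to 0.23).

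The Ndc80 complex, which links kinetochores to microtubules, has 3 of its 4 genes among the 39: NUF2 rose, SPC25 fell and NDC80 did not pass. NUF2 had 10.02, 9.97 and 9.93 with FECH siRNA, and 9.59, 9.53 and 9.63 with control siRNA (log2 fold change 0.39, SE 0.08, limma adjusted p = 0.0020). NUF2 had 9.71, 9.49 and 9.74 with 5-ALA only, and 9.61, 9.49 and 9.79 in untreated cells, all below the lowest FECH siRNA array. SPC25 had 8.51, 8.46 and 8.17 with FECH siRNA, and 8.92, 8.69 and 8.56 with control siRNA (log2 fold change -0.34, SE 0.12, limma adjusted p = 0.031). SPC25 had 8.89, 8.80 and 8.58 with 5-ALA only, and 8.85, 8.80 and 8.60 in untreated cells. The 3 FECH siRNA arrays were the lowest of the 12, and replicate 3 was the lowest of each group. The call of SPC25 was lost without control siRNA replicate 1 (adjusted p = 0.131), without control siRNA replicate 2 (0.0611) and without FECH siRNA replicate 3 (0.137). It was also lost with each array centred on its median. Over the 22 alternatives its limma adjusted p ran from 1.9e-04 to 0.137. NDC80 itself was at 0.12 and did not pass (interval -0.08 to 0.33). Of the other centromere genes CENPA, the histone variant that marks the centromere, rose by 0.16 (SE 0.06, limma adjusted p = 0.038), while CENPF (0.14), a protein of the outer kinetochore, and CENPE (-0.17), a motor that aligns chromosomes, did not pass.

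Of 5 genes of spindle motors and microtubule proteins, 2 rose and none fell, where 20.4% of all genes rose and 17.8% fell. KIF2C, or MCAK, which takes microtubules apart at kinetochores, rose by 0.22 (SE 0.08, limma adjusted p = 0.040). PRC1, which bundles the microtubules of the central spindle, rose by 0.20 (SE 0.06, limma adjusted p = 0.021). KIF11, the Eg5 motor that separates the poles, was at 0.09 and did not pass. NUSAP1, which binds spindle microtubules, and KIF4A, a chromosome-bound motor, were at 0.09 and 0.01 and did not pass either.

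Among the 4 genes of cytokinesis, the motors KIF23 and KIF20A went opposite ways. KIF23, the MKLP1 motor of the centralspindlin complex, had 10.65, 10.55 and 10.47 with FECH siRNA, and 11.37, 11.16 and 11.26 with control siRNA. It had 11.40, 11.22 and 11.32 with 5-ALA only, and 11.34, 11.15 and 11.11 in untreated cells. The 3 FECH siRNA arrays were the lowest of the 12, a fall of 1.63-fold against control siRNA (log2 fold change -0.71, SE 0.08, limma adjusted p = 1.8e-05). KIF20A, or MKLP2, which carries the passenger complex to the central spindle, had 11.48, 11.38 and 11.24 with FECH siRNA, and 11.09, 11.04 and 11.09 with control siRNA (log2 fold change 0.29, SE 0.06, limma adjusted p = 0.0027). KIF20A had 10.94, 10.88 and 10.90 with 5-ALA only, and 10.92, 10.98 and 10.98 in untreated cells, all below every FECH siRNA array. ECT2, which activates RHOA at the division plane, was at 0.19 and did not pass (limma adjusted p = 0.119). In 3 of the 22 alternatives it passed, among them a fit blocked on the runs of sample numbers, at a limma adjusted p of 0.025. AURKA, CCNB2 and CENPF, which did not pass in the main fit, each passed in 1 alternative. ANLN, or anillin, was at 0.11 (interval -0.06 to 0.27).

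The proliferation marker MKI67, which coats mitotic chromosomes, and the transcription factor FOXM1, which drives G2 and mitosis genes, both rose. MKI67 had 11.69, 11.62 and 11.52 with FECH siRNA, and 11.24, 11.14 and 11.16 with control siRNA (log2 fold change 0.43, SE 0.06, limma adjusted p = 1.3e-04). With 5-ALA only MKI67 had 11.38, 11.28 and 11.28, and in untreated cells 11.38, 11.35 and 11.27, between the other 2 groups. FOXM1 had 10.99, 11.09 and 10.90 with FECH siRNA, and 10.67, 10.57 and 10.66 with control siRNA (log2 fold change 0.36, SE 0.07, limma adjusted p = 8.4e-04). FOXM1 had 10.46, 10.64 and 10.53 with 5-ALA only, and 10.57, 10.66 and 10.56 in untreated cells. TOP2A, the topoisomerase that untangles chromosomes, had 11.85, 11.69 and 11.57 with FECH siRNA, and 11.83, 11.76 and 11.80 with control siRNA, which overlap, and it did not pass (-0.10, interval -0.25 to 0.05).

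Against 5-ALA only, 13 of the 39 genes rose and 4 fell with FECH siRNA, beside 19.5% and 17.5% of all genes tested (37.0% in either direction). All 3 FECH siRNA arrays were above those with 5-ALA only on 20 genes and below on 4, where 27.0% and 23.0% of all genes did so. Blocked on the runs, 21 rose, and of all 12151 genes 2961 rose in place of 2366. The count is 8 without FECH siRNA replicate 1 and 8 without 5-ALA only replicate 2. Of all genes 2081 and 2026 rose in these fits. AURKB (log2 fold change 0.66, SE 0.08, limma adjusted p = 1.6e-05), KIF20A (0.46), FOXM1 (0.45) and CENPA (0.35) led the rises. CDCA8 (0.33), NUF2 (0.33), CDC20 (0.30), MKI67 (0.30), CDK1 (0.24), PRC1 (0.18) and CCNA2 (0.16) rose less. MAD2L1 (log2 fold change -2.05, SE 0.09, limma adjusted p = 5.6e-09), KIF23 (-0.76), SPC25 (-0.37) and BUB1B (-0.24) fell. CCNB2 (0.24), PLK1 (0.19) and BUB1B passed here and not against control siRNA, and BUB1, BUB3, BIRC5, TPX2, KIF2C and CDC25C the other way round. The gap between both differences is that of control siRNA minus 5-ALA only, in which none of the 39 passed.

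Against no treatment, 11 genes rose and 4 fell with FECH siRNA, beside 21.0% and 16.3% of all genes (37.3% in either direction). All 3 FECH siRNA arrays were above the untreated ones on 20 genes and below on 5, beside 26.6% and 21.3%. The risers were AURKB (0.67), FOXM1 (0.40), KIF20A (0.40), CDCA8 (0.37), CENPA (0.36), NUF2 (0.34), MKI67 (0.28), KIF2C (0.25), CDK1 (0.24), CDC20 (0.21) and BUB1 (0.19). MAD2L1 (log2 fold change -2.08, SE 0.09, limma adjusted p = 4.5e-09), KIF23 (-0.64), SPC25 (-0.37) and BUB1B (-0.18) fell. Without untreated replicate 3, the array that stood apart, BUB1 (adjusted p = 0.068), CDK1 (0.053) and KIF2C (0.054) no longer passed and UBE2C did (0.037). The count of rises was 7 without FECH siRNA replicate 1, where 2229 of all genes rose in place of 2555. The count of falls was 2 without untreated replicate 1, without untreated replicate 2, and without FECH siRNA replicate 3. Of all genes 1744, 1795 and 1685 fell in these fits, in place of 1982. The 3 comparisons share the FECH siRNA arrays, so they are not independent. In all 3 of them 9 genes rose (AURKB, CDC20, CDCA8, CDK1, CENPA, FOXM1, KIF20A, MKI67, NUF2) and 3 fell (MAD2L1, KIF23, SPC25). Of all genes tested, 13.9% rose and 12.4% fell in all 3. These calls were not equally stable. Over the 22 alternatives, CDC20 lost its call in 11 against no treatment. CDK1 lost it in 8 against 5-ALA only and in 7 against no treatment, and CENPA in 8 against control siRNA. SPC25 lost it in 3 against 5-ALA only and in 3 against no treatment. AURKB, CDCA8, FOXM1, KIF20A, MKI67, NUF2, MAD2L1 and KIF23 kept theirs in every alternative of all 3.

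The control siRNA did not move any of the 39 past the limma test. Against 5-ALA only 0 passed, beside 6.20% of all genes. An unadjusted p below 0.05 was found for 6 of the 39 and for 2565 of the 12151 genes tested, a larger share. With the runs as a block UBE2C (0.18, adjusted p = 0.048) and CENPA (0.18, adjusted p = 0.037) rose and CCNB1 (-0.27, adjusted p = 0.029) fell, beside 13.6% of all genes called. Against no treatment 0 passed, beside 4.62% of all genes. Here 4 of the 39 and 2171 of the 12151 genes, again a larger share, had an unadjusted p below 0.05. With the block CENPA (0.19, adjusted p = 0.038) rose and CCNB1 (-0.35, adjusted p = 0.0098) fell, beside 10.7% of all genes called. For MAD2L1 the difference between control siRNA and 5-ALA only was -0.04, with a 95% interval of -0.24 to 0.16. For KIF23 it was -0.05 (interval -0.23 to 0.13), and for AURKB 0.09 (interval -0.07 to 0.26).

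5-ALA without transfection left the 39 genes within -0.10 to 0.11 of the untreated level. None passed with limma, beside 0.0165% of all genes tested. None had an unadjusted p below 0.05, beside 343 of the 12151 genes. MAD2L1 was at -0.04 (interval -0.23 to 0.16), CCNB1 at -0.08 (interval -0.32 to 0.15) and MKI67 at -0.02 (interval -0.16 to 0.12). Of the 39 genes, 16 passed in none of the 6 comparisons, among them AURKA, NDC80, TOP2A, CENPE and KIF11, beside 49.8% of all genes tested.

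**Figure D3:**
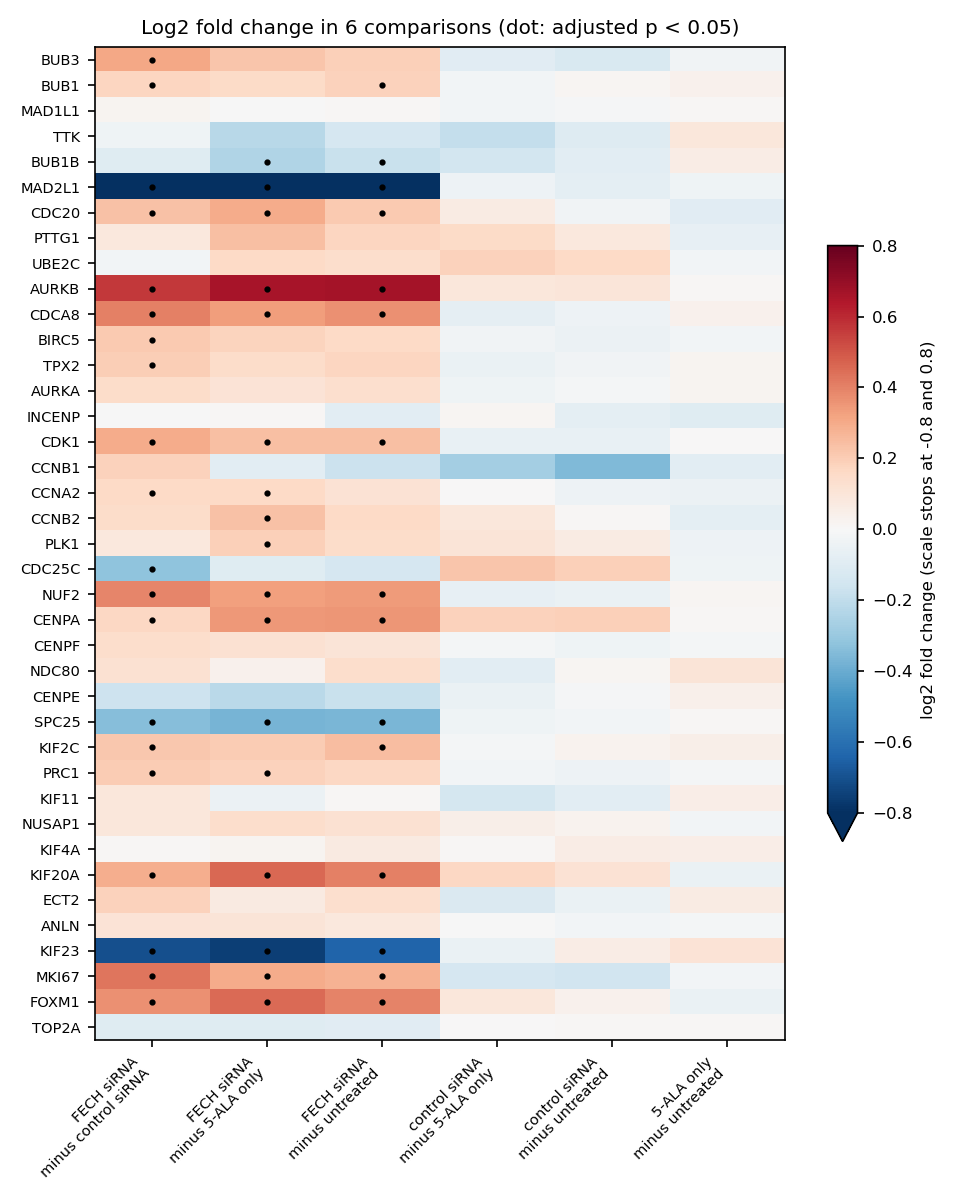
Log2 fold changes of the 39 genes (rows, in the order of their roles) in 6 comparisons (columns); the colour scale stops at -0.8 and 0.8, and a dot marks an adjusted p below 0.05 in limma. The dots lie in the 3 columns with FECH siRNA, and the 3 other columns, from -0.35 to 0.22, hold none.

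The size of the difference varied with the sample numbers. The numbers in the titles run in 3 sets of 4, each with 1 sample of every group, and the difference between FECH siRNA and control siRNA can be read within each. The median over the 39 genes was 0.20 in the first run, 0.19 in the second and 0.01 in the third, where the median over all genes was 0.00, 0.02 and -0.01. In all 3 runs 19 genes were higher and 5 lower with FECH siRNA, beside 36.2% and 33.6% of all genes, and 15 were mixed. MAD2L1 differed by -2.07, -1.73 and -2.22, KIF23 by -0.72, -0.60 and -0.79 and AURKB by 0.50, 0.69 and 0.52. AURKA differed by 0.34, 0.12 and -0.02, PTTG1 by 0.09, 0.30 and -0.13 and CCNB1 by 0.18, 0.38 and -0.02. The mitosis genes were low on the third FECH siRNA array and high on the third control siRNA array: 6 and 33 of the 39 lay above their group's mean, against 34 and 21 in the first run, and 23 and 7 in the second. Of all genes tested, 48.7% and 55.0% lay above their group's mean on these arrays in the third run, 47.5% and 56.7% in the first and 55.2% and 39.7% in the second.

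**Figure D4:**
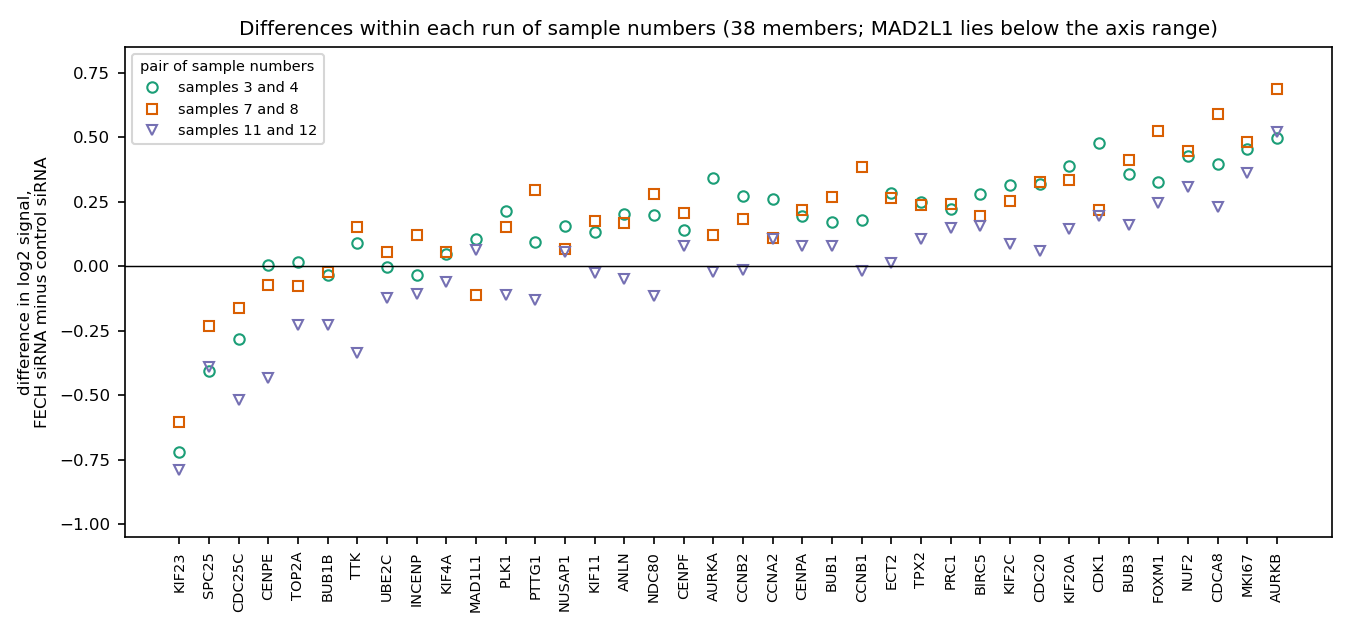
Difference in log2 signal, FECH siRNA minus control siRNA (y axis), within each of the 3 runs of sample numbers for 38 genes (x axis, sorted by the mean difference); MAD2L1, at -2.07, -1.73 and -2.22, is below the axis range. The triangles, from samples 11 and 12, lie below the other symbols for most genes, and KIF23, SPC25, CDC25C and BUB1B are below 0 in all 3 runs.

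Within groups the 39 genes tended to deviate together. After each group's mean was removed, the median correlation over the 741 pairs of genes was 0.34 across the 12 arrays, and 78.4% of pairs were above 0, beside a median of 0.02 and 51.6% over all pairs of genes tested. These arrays share their runs and their normalization, and the correlations are a description. MAD1L1 had a median of -0.35 with the other 38, the lowest of the 39. The spread itself was not large: the median pooled SD within groups was 0.09 for the 39 genes and 0.10 for all genes tested.

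The promoters of these genes were searched for motifs of NF-Y and MuvB complexes, which are known to act on genes of G2 and mitosis. High shares were therefore likely from the start, and they are a description. RefSeq (GRCh38.p14) gives a promoter of 300 bases, 250 before to 50 after the start, for 32 of the 39 genes. FOXM1, TPX2, BUB3, BIRC5, TTK, AURKA and UBE2C have none in the table used. 3 motifs were counted on both strands: CCAAT (also read as ATTGG), the box bound by NF-Y, and TTTGAA (also TTCAAA) and TTTAAA, core letters of the cell cycle genes homology region, which MuvB complexes bind through LIN54. TTTGAA and ATTGG overlap where they meet as TTTGAATTGG. CCAAT was in a listed promoter of 25 of the 32 genes (78.1%), beside 39.7% of all 27305 genes in the table. TTTGAA was in 23 (71.9%), beside 18.2%, and TTTAAA in 12 (37.5%), beside 14.5%. Both CCAAT and TTTGAA were found in 19 genes (59.4%), beside 8.37% of all. Counted per promoter of the same length, CCAAT was in 29 of 39 (74.4%), beside 34.6% of all 35116, and TTTGAA in 26 of 39 (66.7%), beside 15.2%. By call, CCAAT was in 10 of 12 genes that rose with FECH siRNA against control siRNA, in 4 of 4 that fell and in 11 of 16 that did not pass, and TTTGAA in 7, 4 and 12 of them.

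The 250 bases before the start are shown for the 2 genes with the largest falls, 3 with large rises and PLK1, which did not pass, so that genes that moved apart can be compared. Capitals mark the 3 motifs, and each line reads 5′ to 3′ on the strand of the gene up to the base before its start.
MAD2L1 (chr4:120066849-120067098, minus strand): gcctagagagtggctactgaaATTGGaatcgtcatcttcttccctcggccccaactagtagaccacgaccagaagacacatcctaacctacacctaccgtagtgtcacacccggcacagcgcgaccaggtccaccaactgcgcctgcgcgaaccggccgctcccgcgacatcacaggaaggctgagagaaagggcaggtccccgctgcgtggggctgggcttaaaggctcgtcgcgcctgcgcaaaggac
KIF23 (chr15:69414099-69414348, plus strand): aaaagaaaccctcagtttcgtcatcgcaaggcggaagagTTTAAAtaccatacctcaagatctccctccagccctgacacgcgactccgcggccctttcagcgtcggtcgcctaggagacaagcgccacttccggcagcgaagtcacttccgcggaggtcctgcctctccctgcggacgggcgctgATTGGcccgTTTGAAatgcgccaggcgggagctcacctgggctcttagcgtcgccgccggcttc
AURKB (chr17:8210226-8210475, minus strand): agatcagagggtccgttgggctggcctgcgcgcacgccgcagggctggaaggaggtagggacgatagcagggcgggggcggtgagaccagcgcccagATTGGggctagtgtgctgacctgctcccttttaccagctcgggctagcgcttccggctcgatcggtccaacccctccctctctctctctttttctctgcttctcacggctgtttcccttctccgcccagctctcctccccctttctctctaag
MKI67 (chr10:128126424-128126673, minus strand): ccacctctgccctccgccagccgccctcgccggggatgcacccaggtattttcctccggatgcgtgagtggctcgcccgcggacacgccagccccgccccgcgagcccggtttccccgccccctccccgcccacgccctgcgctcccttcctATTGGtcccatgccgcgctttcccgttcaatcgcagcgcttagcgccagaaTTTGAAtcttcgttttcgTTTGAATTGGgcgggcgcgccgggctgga
CDCA8 (chr1:37692266-37692515, plus strand): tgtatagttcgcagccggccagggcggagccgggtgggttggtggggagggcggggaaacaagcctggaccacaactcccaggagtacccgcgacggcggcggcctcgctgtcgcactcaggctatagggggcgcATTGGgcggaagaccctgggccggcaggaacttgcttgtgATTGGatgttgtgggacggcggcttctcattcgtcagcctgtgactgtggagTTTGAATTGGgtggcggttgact
PLK1 (chr16:23678639-23678888, plus strand): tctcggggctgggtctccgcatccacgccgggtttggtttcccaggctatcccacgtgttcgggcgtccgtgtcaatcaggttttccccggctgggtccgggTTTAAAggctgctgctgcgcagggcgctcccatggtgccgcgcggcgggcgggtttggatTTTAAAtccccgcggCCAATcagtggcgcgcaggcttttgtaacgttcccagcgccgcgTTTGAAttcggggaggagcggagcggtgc

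In this window MAD2L1 has 1 CCAAT box, 229 bases before the start, and its TTTGAA lies past the start and is not shown. KIF23, which fell, and PLK1, which did not pass, each have a CCAAT box with a TTTGAA closer to the start. MKI67 and CDCA8, which rose, have TTTGAATTGG 29 and 23 bases before the start. AURKB, with the largest rise, has 1 CCAAT box and neither of the other motifs in the listed promoter shown. A match describes these letters and is not evidence of binding.

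The other genes of mitosis were counted from 6 lists. With FECH siRNA against control siRNA, 5 of 12 tested genes of the checkpoint and centromere protection rose and 2 fell (median 0.12), where 20.4% and 17.8% of all genes did. SPDL1, which recruits dynein to kinetochores, rose by 0.43 (SE 0.06) and the kinase HASPIN by 0.37 (SE 0.11), while ZW10, which acts with dynein at kinetochores, fell and was at -0.42 (SE 0.07). Of 24 other kinetochore and centromere genes 3 rose and 4 fell (median -0.01), with CENPK, of the inner kinetochore, at -1.38 (SE 0.12), CENPL at 0.60 and CENPQ at -0.38. SPC24, the fourth gene of the Ndc80 complex, was chosen after its values were seen: it was at -0.02 and did not pass.

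Of 17 genes of the anaphase promoting complex and separase, 7 rose and 2 fell (median 0.13), where 20.4% and 17.8% of all genes did. The lowest value in this list was -0.33, that of the subunit CDC27. CDC27 was at -0.65 (SE 0.09) against 5-ALA only and -0.64 (SE 0.09) against no treatment. These were falls, and the largest changes of the list in both comparisons. Against control siRNA the subunit ANAPC13 rose by 0.68 (SE 0.11) and ANAPC10 by 0.40 (SE 0.08). Separase, ESPL1, which cuts cohesin at anaphase, rose by 0.36 (SE 0.06). In cohesin and condensin 3 of 18 rose and 2 fell (median 0.08), or 27.8% called beside 38.3% of all genes. The 2 that fell are SMC1A, a core subunit of cohesin, at -1.03 (SE 0.06), and its regulator PDS5A, at -0.61 (SE 0.06). SMC1A also fell with control siRNA against 5-ALA only (log2 fold change -0.42, SE 0.06, limma adjusted p = 0.0015).

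Of 22 other genes of the spindle, motors and cytokinesis, 8 rose and 4 fell (median 0.09), where 20.4% and 17.8% of all genes did. The motor KIF15 was at -0.67 (SE 0.09), CLASP2, which stabilises microtubules, at -0.48, KNSTRN at 0.55 and the motor KIFC1 at 0.43. RACGAP1, the partner of KIF23 in centralspindlin, was chosen after its values were seen: it was at 0.05 and did not pass. Of 17 other genes of mitotic entry and exit 5 rose and 2 fell (median 0.09), or 41.2% called beside 38.3% of all genes. The lowest value in this list was -0.23. Among those that rose were PKMYT1, a kinase that inhibits CDK1, at 0.39 (SE 0.07), CKS2, which binds CDK1, at 0.58 (SE 0.16), and GTSE1 at 0.34 (SE 0.07).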

How the data were processed

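Total RNA was labelled with biotin and hybridized, 1 array per sample. RMA and the oligo package are named in the submitters' processing notes, with no role or version, and the genome build is not given in the sources used here. Deposited values are signal intensity per transcript cluster on a linear scale, which the authors made before deposit. Their log2 was taken, with a pseudocount of 0 and no further normalization. The deposited workbook holds 12 further columns of per-sample values, which were not used. The values of the series matrix differ from those by at most 5e-05.

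Of 28869 probe sets, 6741 carry no symbol and 2191 several, and the 19937 with 1 were brought to current symbols by Entrez number (19309 of them) or kept as named (628). Genes exceeding 7.29, the median over all probe sets, on at least 3 arrays were kept, with the probe set of the highest mean for each, which left 12151. A model with 4 group means was fitted to all 12 arrays with limma 3.58.1 in R 4.3.3 (data.table, version 1.17.8; eBayes defaults, two-sided), adjusted by Benjamini-Hochberg over all genes within each of 6 comparisons at 0.05. The fit was tested on simulated data. The members, gene lists and motifs were chosen with earlier results of these data known. The naming rule gives every gene past the test against control siRNA, the values per array of the 12 with the largest change and of 11 set genes, and up to 4 per list.

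Sample numbers run in 3 sets of 4. As deviations from group means, samples of different groups in 1 run correlated at 0.21 to 0.54 over all genes, all 18 pairs above 0.1. Those of different runs correlated at 0.15 or below. Deviations within a group cancel out by construction, so low values between runs follow in part from positive ones within runs. It is by the positive correlations within runs that the samples of 1 run go together. The main fit leaves the runs out, so its SEs and p-values include the spread between runs. A fit with the runs as a block was an alternative. It called 46.8% of all genes for FECH siRNA against control siRNA in place of 38.3%, and of the 39 genes 17 rose and 4 fell. For control siRNA against 5-ALA only it called 13.6% of all genes in place of 6.20%. Promoters were read with Python 3.11.15 and pandas 2.3.3, and figures drawn with matplotlib 3.10.9. No fit dropped or imputed a sample in the values reported as main. Of the markers of the line, 1 is not reported here.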

Additional observations from a re-analysis of the deposited data

How the results depend on the processing

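22 alternatives were run for each of the 6 comparisons: filters, a replicate block, only the 2 groups compared, variance settings, 2 scalings, array weights, probe set averaging, the value table, and leaving out each array. Of the counts of rises and falls, 250 stayed within 1.5 times and 14 did not. With the replicate block, 21 of the 39 genes rose with FECH siRNA against 5-ALA only in place of 13, and 2961 of all genes in place of 2366. Control siRNA against 5-ALA only gave 2 rises and 1 fall with the block, and against no treatment 1 and 1, in place of 0. Of all genes the block called 13.6% and 10.7% in these comparisons. Array weights gave 21 rises for FECH siRNA against 5-ALA only, and 3051 among all genes. Leaving out single arrays gave 7 to 16 rises and 3 to 4 falls against control siRNA, 8 to 14 and 3 to 5 against 5-ALA only, and 7 to 14 and 2 to 4 against no treatment, and 0 of either in the 3 comparisons without FECH siRNA. The block changed no other count by over 1.5 times. No called gene reversed. Of the values of single genes, 118 lost their call and 6 gained one, while 1437 kept theirs. Of the 20 calls against control siRNA, 9 held in every alternative that tested the gene: MAD2L1, KIF23, CDC25C, AURKB, MKI67, CDCA8, NUF2, FOXM1 and KIF20A (CDC25C was not tested with the filter at the 70th percentile). SPC25, the other gene that fell, lost its call in 4, with an adjusted p of up to 0.137. No setting for background correction could be varied, since only RMA values were used.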

Other observations

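Regulators of the mitosis genes and genes of S phase were counted beside them. Of 22 regulators in the DREAM, MYB-MuvB, E2F, NF-Y and p53 groups, 6 rose and 4 fell with FECH siRNA against control siRNA (median 0.04). RB1, the retinoblastoma protein, was at -0.89 (SE 0.07, limma adjusted p = 4.4e-07) and its relative RBL2 at -0.55 (SE 0.10, limma adjusted p = 5.0e-04). E2F3, an activator of S phase genes, rose by 0.64 (SE 0.11), and LIN54, the subunit of MuvB that binds DNA, by 0.58 (SE 0.08). Of 33 genes of DNA replication and S phase 6 rose and 7 fell (median 0.05). Cyclin CCNE2 was at -0.92 (SE 0.16), TYMS, which makes thymidylate, at -0.56 (SE 0.09), UHRF1 at -0.53 (SE 0.07) and the helicase subunit MCM6 at 0.51 (SE 0.07). These lists stand beside 20.4% of all genes that rose and 17.8% that fell.

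With control siRNA against 5-ALA only, none of the 39 mitosis genes passed. CDKN1B, the p27 inhibitor of cyclin-dependent kinases, rose by 0.53 (SE 0.08, limma adjusted p = 0.0016). Cyclin CCNE1 rose by 0.46 (SE 0.06, limma adjusted p = 0.0011) and the phosphatase CDC25A by 0.49 (SE 0.12, limma adjusted p = 0.034). In the same comparison SMC4, of condensin, fell and was at -0.29 (SE 0.07). The rises were not particular to control siRNA. CDKN1B had 10.07, 9.82 and 9.97 with FECH siRNA, and 9.23, 9.15 and 9.32 with 5-ALA only. CCNE1 had 8.71, 8.68 and 8.60 against 8.22, 8.29 and 8.31 in these groups. CDC25A had 8.05, 7.93 and 8.02 against 7.25, 7.35 and 7.69.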
